A study of Mus musculus with 9 samples.

Results

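The interferon-gamma induced GTPases are enzymes of cell-autonomous immunity, and 10 of their genes were followed here through control and tumor-associated meningeal lymphatic endothelial cells (MLECs). They were taken by gene symbol from the deposited expression table, in which all 10 of them were listed among 24321 genes. The set holds 5 guanylate-binding protein (GBP) genes, Gbp2, Gbp3, Gbp5, Gbp6 and Gbp7, and 5 immunity-related GTPase (IRG) genes, Igtp, Irgm1, Irgm2, Iigp1 and Ifi47. The rule is a list of gene symbols, drawn up with earlier results of these data known.

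Each of the 9 libraries was made from 10 MLECs sorted from the pooled meninges of 6 male mice aged 10 weeks, with 3 libraries in each of 3 groups. The control group had received PBS alone, the GL261 group the mouse glioma line GL261, and the B16 group the mouse melanoma line B16, so all 3 groups had been injected and no group was left untouched. The sample labels describe 100000 tumor cells in 5 µL of PBS placed in the cisterna magna. The methods of the study instead describe injection beneath the dura, in a smaller volume and with fewer cells, and with more GL261 than B16 cells. GL261-bearing mice were killed about 3 weeks and B16-bearing mice about 2 weeks after injection, so tumor line and time cannot be told apart. If the methods apply, the number of injected cells cannot be told apart from them either. These times are those of the labels, and the results text of the study gives 2 weeks for all groups. The labels name CD31, CD45 and LYVE-1 as the sorting markers, while the results text names PDPN in place of LYVE-1. Levels are in FPKM, the fragments of a gene scaled to the length of its transcript and to the fragments mapped in the library. Values of exactly 0 can be failed estimates and are given as listed at 0.

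Interferon-gamma binds a receptor of the chains Ifngr1 and Ifngr2, and the kinases Jak1 and Jak2 then pass the signal to the nucleus, where gamma-activated sites in DNA are bound and the transcription factor Irf1 is induced. GBP and IRG genes are among the classical targets of this pathway and are also reached by type I interferons. GBPs gather on the membranes of vacuoles that hold bacteria or parasites and promote inflammasome responses, while effector IRGs such as Iigp1 and Ifi47 load onto and disrupt parasite vacuoles. Irgm1, Irgm2 and Igtp are regulatory IRGs that sit on the host cell's own membranes and hold the effectors inactive there. Endothelial cells are well-known responders to interferon-gamma, which raises antigen presentation and chemokine genes in them.

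The genes are clustered in the mouse genome. In mm9, Gbp5 (chr3:142159864-142185308), Gbp7 (chr3:142193302-142213047), Gbp3 (chr3:142223016-142236173) and Gbp2 (chr3:142283566-142300972) lie within 141109 bases of chromosome 3, whereas Gbp6 (chr5:105699723-105722718) is on chromosome 5. Igtp (chr11:58013058-58021093) and Irgm2 (chr11:58028530-58036282) are neighbours on chromosome 11, separated by 7436 bases. Irgm1 (chr11:48675470-48685185) and Ifi47 (chr11:48890089-48910476) lie elsewhere on the same chromosome, and Iigp1 stands apart from these clusters on another chromosome. Gbp6 shared 65.9% of its 100-base stretches of transcript with other genes, mostly with Gbp10, so reads may have been split between these copies and its level is uncertain. That share was at most 3.38% (Igtp, with Irgm2) in the other members. Ifi47 overlaps Olfr56 on the same strand, and 0.480% of its stretches were shared with that gene.

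The promoter sequences, which the choice of genes did not use, show a feature that most members shared. The members were named as interferon-gamma induced genes, and promoters of neighbouring genes can be alike, so they are not independent examples. RefSeq promoters (GRCm38.p6, 250 bases before to 50 bases after the start) matched 8 of the 10 members with 9 promoters, Gbp3 having 2, and no promoter of Gbp6 or Iigp1 was analysed here. The core of the interferon-stimulated response element, searched as GAAA, any 2 bases and GAAA again on both strands, was found in promoters of 7 of the 8 genes, all but Ifi47. By promoter this was 77.8% of the members' 9 promoters against 3.44% of all 32851 promoters. A gamma-activated site, searched as TTCNNNGAA, which reads the same on both strands, was found in 4 genes, Gbp5, Gbp7, Igtp and Irgm2, or 44.4% of the promoters against 8.3% of all. The windows of 45 bases around the element are printed 5′ to 3′ in the direction of transcription, with the core in capitals, and a core that opens with TTTC is one read on the other strand. The positions below are GRCm38.p6 and each window lies before the start.
Gbp2 (chr3:142620587-142620631, + strand): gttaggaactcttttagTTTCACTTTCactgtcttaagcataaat
Gbp3 (chr3:142559988-142560032, + strand): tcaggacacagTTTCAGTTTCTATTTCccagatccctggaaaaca
Gbp5 (chr3:142496752-142496796, + strand): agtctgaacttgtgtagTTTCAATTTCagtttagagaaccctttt
Gbp7 (chr3:142530266-142530310, + strand): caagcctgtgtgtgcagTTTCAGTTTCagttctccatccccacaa
Igtp (chr11:58199505-58199549, + strand): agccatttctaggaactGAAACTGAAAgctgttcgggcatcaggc
Irgm1 (chr11:48871421-48871465, - strand): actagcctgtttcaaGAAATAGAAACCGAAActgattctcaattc
Irgm2 (chr11:58214896-58214940, + strand): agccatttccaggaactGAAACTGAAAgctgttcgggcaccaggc

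In the 4 GBP promoters the core reads TTTC-first, and in the 3 IRG promoters it reads GAAA-first. The Gbp3 and Irgm1 windows each hold 2 cores that overlap. The windows of the neighbours Igtp and Irgm2 were identical at 43 of 45 bases and each also holds a gamma-activated site, at positions -45 to -37 of Igtp and -75 to -67 of Irgm2, just ahead of the core. A match to these letters is a description of the sequence and no measurement of binding.

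**Figure D1:**
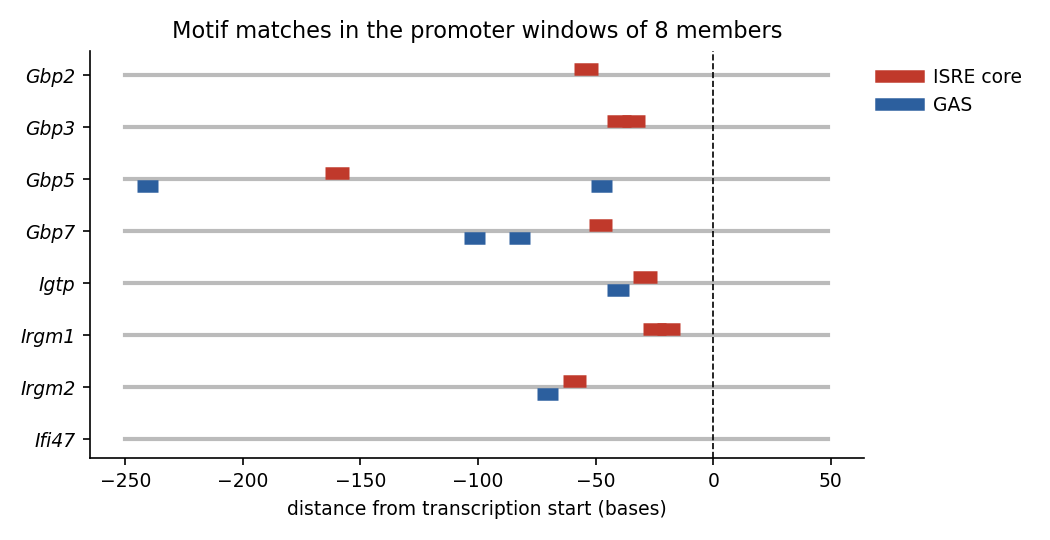
Matches of the interferon-stimulated response element core (ISRE core, red) and the gamma-activated site (GAS, blue) in the members' RefSeq promoters, with 1 row per gene and the distance from the transcription start in bases on the x axis. The core lies before the start in 7 of 8 genes, and Gbp5, Gbp7, Igtp and Irgm2 also hold a gamma-activated site.

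Facts of the whole libraries move with the groups. The control libraries had 7303 to 8688 genes above 0, the GL261 libraries 9456 to 10852 and the B16 libraries 8736 to 9950. The depth behind the FPKM values is unknown from the table itself, but in the study's supplement the control group has the lowest numbers of aligned reads, below both tumor groups. All 7 lymphatic markers were above 0 in all 9 libraries, but their summed level was 9726 to 15900 FPKM in control libraries, against 1200 to 2947 FPKM with GL261 and 2365 to 6794 FPKM with B16. The 8 blood endothelial markers summed to 873 to 1634 FPKM in control libraries, against 5725 to 8882 FPKM with GL261 and 4381 to 7383 FPKM with B16. They exceeded the lymphatic markers in all 3 GL261 libraries, in 2 of the 3 B16 libraries and in no control library, and the part of these markers in the GTPase levels was not tested. Fewer cells of a type and less RNA per cell cannot be told apart in these pooled libraries. Leukocyte markers summed to between 244 and 579 FPKM in control libraries, with 35.5 to 508 FPKM in the GL261 group and 32.8 to 301 FPKM in the B16 group, so all groups overlapped. Of the 14 leukocyte markers, 2 to 7 were above 0 in each library. Fcer1g was above 0 in all 9 libraries, Cd68 in 8, Lyz2 in 7 and Tyrobp in 5, and GL261 replicate 2 held the most Lyz2 (324 FPKM). Ptprc, which encodes CD45, and Cd3e, Cd3g, Nkg7 and Ms4a1 were listed at 0 in all 9 libraries. Melanoma markers summed to at most 4.07 FPKM and glial and glioma markers to at most 3.09 FPKM in any library.

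In the FPKM table the members were at their highest in the GL261 libraries. The highest of the 9 libraries was a GL261 library for all 10 genes, where 23.8% of the 9955 genes tested had their highest value in that group. Every GL261 library lay above every B16 library for 9 of the 10, against 7.13% of the genes tested. No member passed the test of any of the 4 comparisons after adjustment over all genes, so these are descriptions of levels in 3 libraries a group. Nearly all members were also listed above 0 in the control libraries, in which only 1 or 2 of the 10 were listed at 0.

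Among the GBPs, Gbp2 had the highest single value. Gbp2 was listed at 47.9, 0 and 14.9 FPKM in the control libraries (replicates 1, 2 and 3 here and throughout), at 120, 36.6 and 414 FPKM in the GL261 libraries, and at 18.2, 7.74 and 19.1 FPKM in the B16 libraries. The GL261 libraries all lay above the B16 libraries, but GL261 replicate 2 lay below control replicate 1. Gbp2 spread widely among the GL261 libraries themselves, whose highest value came from replicate 3.

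Gbp3 was listed at 0, 13.9 and 29.6 FPKM in control MLECs, at 44.7, 44.7 and 82.6 FPKM in GL261-associated MLECs, and at 7.57, 0 and 2.39 FPKM in B16-associated MLECs. The GL261 libraries of Gbp3 overlapped neither of the other groups. Gbp7 was present in every library, with 8.87, 4.63 and 18.7 FPKM in control MLECs, 18.4, 12.1 and 32.3 FPKM in GL261-associated MLECs, and 0.997, 8.39 and 1.17 FPKM in B16-associated MLECs. For Gbp7 the control and GL261 groups overlapped, and the B16 group lay below every GL261 library.

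Gbp6, whose reads are shared with Gbp10, was listed at 0, 22.5 and 7.36 FPKM in control MLECs, at 23.1, 12.5 and 56.3 FPKM in GL261-associated MLECs, and at 3.88, 0 and 2.99 FPKM in B16-associated MLECs. Gbp5, a GBP that promotes assembly of the NLRP3 inflammasome, was hardly detected. It was listed at 1.31 FPKM in control replicate 1 and at 8.35 FPKM in GL261 replicate 1, and at 0 in the other 7 libraries. Gbp5 therefore failed the filter of 1 FPKM in at least 3 libraries and was the only member left out of the tests.

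The regulatory IRGs were at moderate levels in control MLECs. Igtp, also called Irgm3, was listed at 46.8, 34.0 and 4.15 FPKM in control libraries, at 129, 76.7 and 61.8 FPKM in GL261 libraries, and at 9.02, 15.6 and 9.18 FPKM in B16 libraries. The GL261 libraries of Igtp lay above all 6 others, with a mean of 89.2 ± 35.3 FPKM (SD, n = 3) against 11.3 ± 3.73 FPKM in B16 and 28.3 ± 21.9 FPKM in control libraries. Irgm1, which is also tied to autophagy and the control of mycobacteria, was listed at 0.306, 17.1 and 39.3 FPKM in control libraries, at 148, 69.3 and 70.4 FPKM in GL261 libraries, and at 5.15, 22.3 and 11.5 FPKM in B16 libraries. Here too the GL261 libraries overlapped neither group. Irgm2 differed least between the tumor groups among the 9 members that were tested, and was listed at 19.4, 6.81 and 0.502 FPKM in control libraries, at 24.2, 18.9 and 23.5 FPKM in GL261 libraries, and at 11.3, 4.83 and 10.5 FPKM in B16 libraries. Its GL261 libraries spread little, with a mean of 22.2 ± 2.85 FPKM (SD, n = 3), and its lowest GL261 library lay just below control replicate 1.

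Iigp1 and Ifi47 are the effector IRGs of the set. Iigp1, known as Irga6, was listed at 11.9, 12.9 and 50.6 FPKM in control libraries, at 101, 87.5 and 152 FPKM in GL261 libraries, and at 22.7, 33.8 and 22.1 FPKM in B16 libraries. Iigp1 was detected in all 9 libraries, and its means were 113 ± 33.8 FPKM in GL261, 26.2 ± 6.61 FPKM in B16 and 25.1 ± 22.0 FPKM in control libraries (SD, n = 3 each). Ifi47, known as Irgd, was listed at 0.359, 39.9 and 8.30 FPKM in control libraries, at 187, 172 and 120 FPKM in GL261 libraries, and at 0, 12.6 and 19.1 FPKM in B16 libraries. Both effectors lay above all 6 other libraries in every GL261 library.

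**Figure D2:**
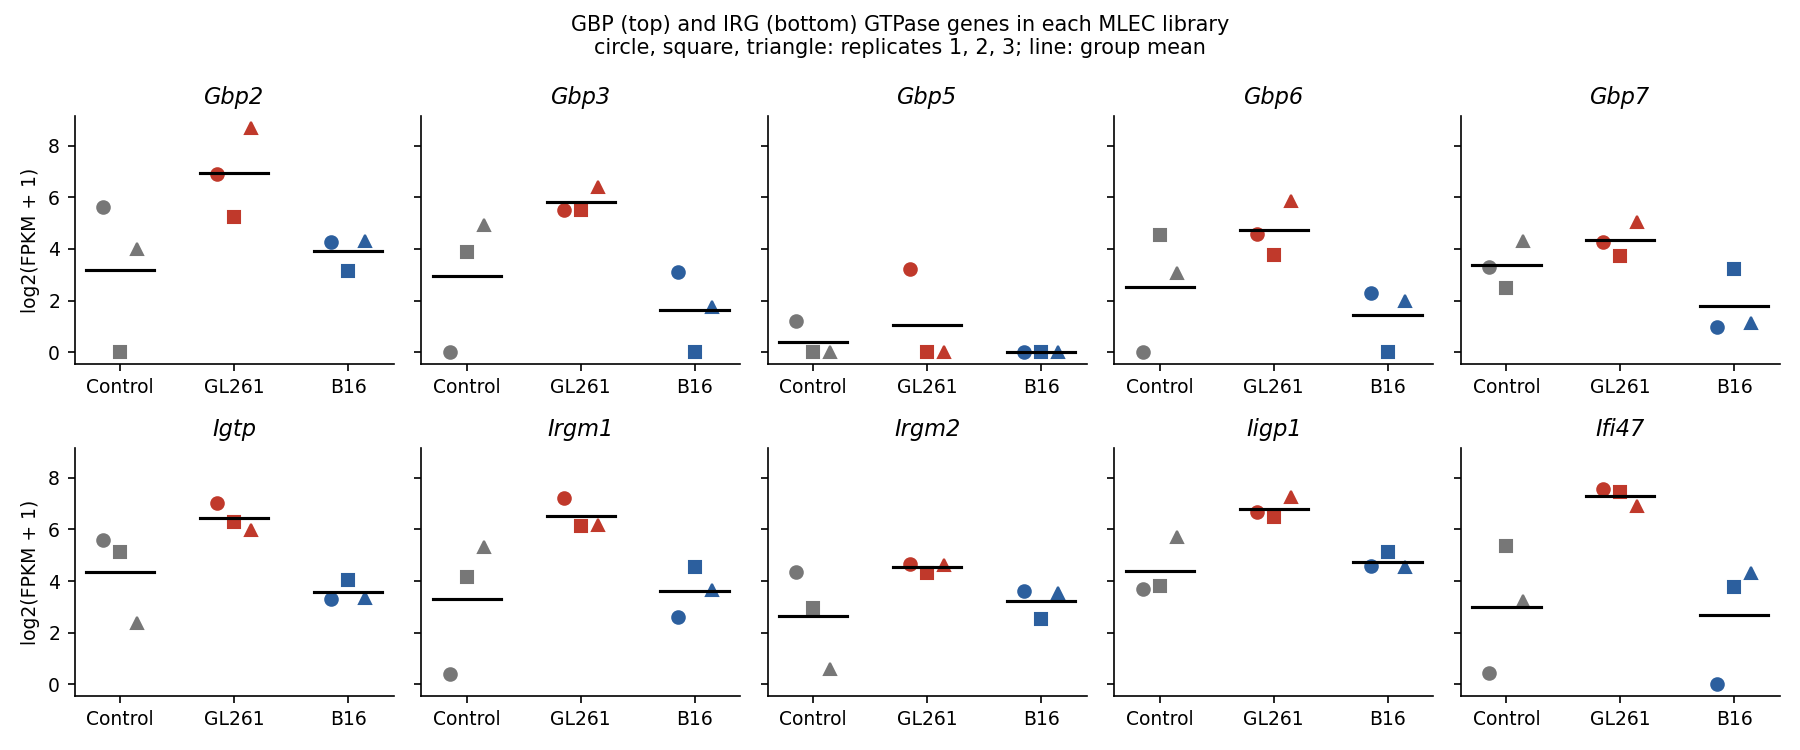
Level of each member in each of the 9 libraries in log2(FPKM + 1), with GBPs above and IRGs below, groups on the x axis, symbols for replicates and a line at each group's mean of log2 values. The GL261 points lie above every B16 point for 9 of the 10 members, the exception being Gbp5, and for Gbp3, Igtp, Irgm1, Iigp1 and Ifi47 they lie above every control point too.

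The comparison of GL261 with control libraries asked how the cells sorted as MLECs from glioma-bearing mice differed from those of injected, tumor-free mice, in libraries that also differed in the lymphatic and blood endothelial markers given above. All 9 tested members were higher on average, with a median difference of 2.41 on the log2(FPKM + 1) scale against 0.23 over all 9955 genes tested. On that scale, which understates the change of low genes, the differences ran from 0.98 (SE 0.88) for Gbp7 to 4.30 (SE 1.28) for Ifi47. Iigp1 came nearest to the threshold, with a difference of 2.41 (SE 0.60) and an adjusted p of 0.0524 by limma with Benjamini-Hochberg adjustment. Ifi47 had an adjusted p of 0.101, Gbp2 a difference of 3.75 (SE 1.27) with 0.144, Irgm1 3.21 (SE 1.09) with 0.146 and Igtp 2.07 (SE 0.80) with 0.201 in the same limma fit. By limma, 0 of 9 members passed the adjusted threshold of 0.05, where 3.49% of all genes tested did so and 2.58% did so with GL261 higher. At an unadjusted p under 0.05, 6 of the 9 were higher, against 11.4% of all genes. Every GL261 library lay above every control library for 5 of 9 members, Gbp3, Igtp, Irgm1, Iigp1 and Ifi47. In that direction this held for 13.7% of all genes tested, and 880 of the 9955 genes had every GL261 library below. Single libraries decided these calls. In the limma fit Iigp1 passed without control replicate 3 (adjusted p = 0.0132), and Ifi47 passed without control replicate 2 (0.0427) or without B16 replicate 1 (0.0493). With aligned reads as a covariate in limma the median was 2.86. Single members then spread from -0.74 for Ifi47 and -0.28 for Igtp to 7.57 for Gbp2, with adjusted p from 0.518 to 0.985. Aligned reads were lowest in the control group, so this fit cannot separate depth from group.

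In B16-associated MLECs the members lay on both sides of their control levels. The differences of the 9 tested members ran from -1.58 (Gbp7) to 0.71 (Gbp2) on the log2(FPKM + 1) scale, and 4 of the 9 were above 0. Their median was -0.31, against 0.20 over all genes tested. By limma, 0 of 9 members passed after adjustment and 0 had an unadjusted p under 0.05, with adjusted p between 0.432 and 0.942. Of all genes tested, 2.11% passed after adjustment and 1.61% did so with B16 higher, and at an unadjusted p under 0.05 9.95% were higher and 5.04% lower. The B16 and control groups overlapped for every tested member, where 10.2% of all genes had every B16 library above and 7.0% every B16 library below the control libraries. The median without B16 replicate 1, in which Ifi47 was listed at 0, was 0.40, and without control replicate 1, in which 2 members were listed at 0, it was -1.15. It was -0.67 without B16 replicate 3, -0.10 without control replicate 2 and 0.03 with aligned reads as a covariate.

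Set against each other, the tumor groups did not overlap for 9 of the 9 tested members, each with all GL261 libraries above all B16 libraries. Over all genes tested this held for 7.13% in that direction and for 6.66% in the opposite direction. The tenth member, Gbp5, overlapped because it was listed at 0 in 2 GL261 libraries. None of the 9 passed the filter through GL261 libraries alone, since each had at least 1 FPKM in 4 to 6 of the other 6 libraries. The differences on the log2(FPKM + 1) scale were 4.60 for Ifi47, 4.18 for Gbp3, 3.30 for Gbp6, 3.04 for Gbp2, 2.90 for Irgm1, 2.85 for Igtp, 2.57 for Gbp7, 2.06 for Iigp1 and 1.30 for Irgm2. Their median was 2.90, and that of all genes tested 0.01. With aligned reads as a covariate it was 2.77. By limma with Benjamini-Hochberg adjustment 0 of 9 members passed, with adjusted p from 0.385 for Ifi47 to 1.0 for Irgm2, whose interval of the difference ran from -0.73 to 3.33. At an unadjusted limma p under 0.05, 8 of 9 members were higher, all but Irgm2, against 3.29% of all genes tested. Only 1 gene of 9955 (0.01%) passed the adjusted threshold in this comparison. With 3 libraries against 3 an exact permutation test of 1 gene cannot go below 0.1 and was not used.

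**Figure D3:**
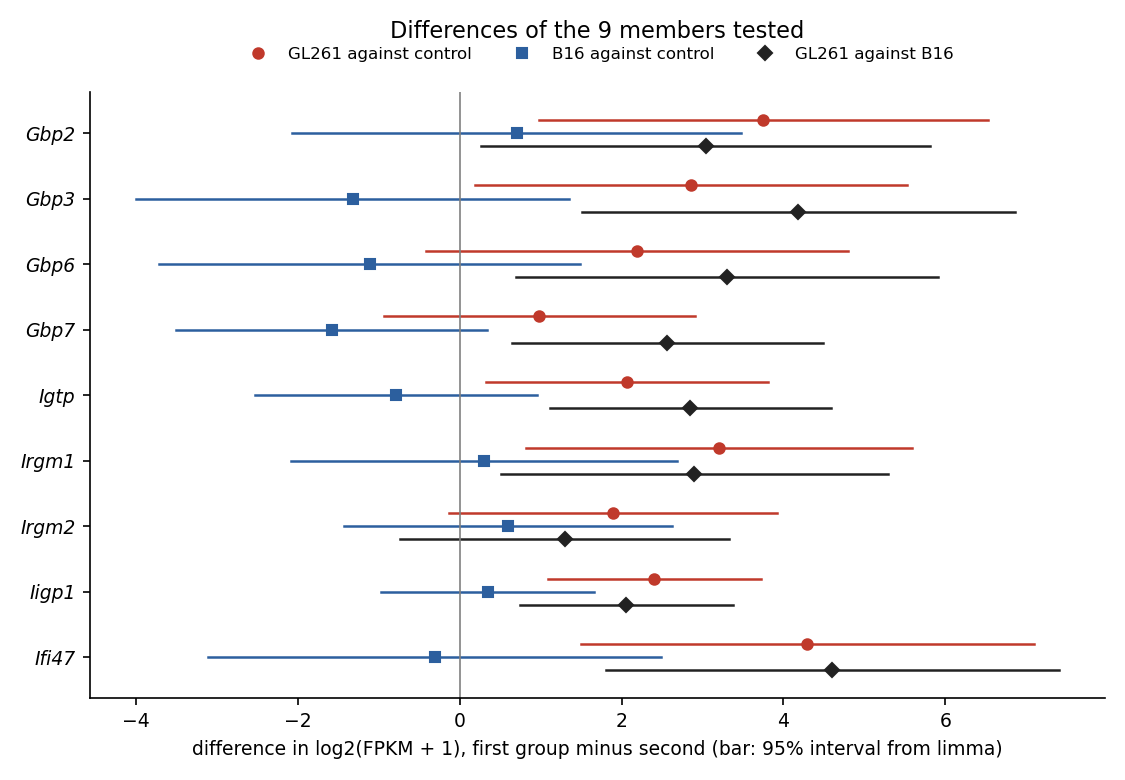
Differences in log2(FPKM + 1) of the 9 tested members (points) in the 3 comparisons of single groups, with 95% intervals from limma as bars and a vertical line at 0. GL261 minus B16 ran from 1.30 to 4.60 and B16 minus control from -1.58 to 0.71.

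With both tumors joined against control, 8 of 9 members had a difference above 0, from -0.30 for Gbp7 to 2.23 for Gbp2, with a median of 1.25 against 0.20 over all genes tested. No member passed, with limma adjusted p from 0.316 to 0.907 and 0 of 9 at an unadjusted p under 0.05, where 3.93% of all genes passed after adjustment, 2.9% with tumor higher, and 12.7% were higher at an unadjusted p under 0.05. The 6 tumor-associated libraries overlapped the control libraries for every tested member. Of the 9955 genes tested, 605 (6.08%) had every tumor library above the control libraries and 442 had every one below. The exact permutation test over the 84 divisions of the libraries into 3 and 6, two-sided and with a smallest possible p of 0.0119, gave p from 0.143 for Iigp1 to 1.0 for Gbp5. Leaving out control replicate 1 lowered the median to 0.71, and aligned reads as a covariate, which differ between the groups, turned it to -1.18. The comparisons share the control libraries and are not independent.

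Summed levels were highest in the GL261 libraries in both families. The 10 members together summed to 803, 530 and 1013 FPKM in the GL261 libraries (782 ± 242, SD, n = 3), to between 78.8 and 105 FPKM in the B16 libraries (94.0 ± 13.7) and to between 137 and 173 FPKM in the control libraries (154 ± 18.4). GBPs summed to 215, 106 and 586 FPKM in the GL261 libraries, to 16.1 to 30.7 FPKM in the B16 libraries and to 41.0 to 70.5 FPKM in the control libraries. IRGs summed to 589, 424 and 427 FPKM in the GL261 libraries, to 48.1 to 89.1 FPKM in the B16 libraries and to 78.7 to 111 FPKM in the control libraries. Of the 5 GBPs, 4 were highest in GL261 replicate 3, the exception being Gbp5, and 4 of 5 IRGs in GL261 replicate 1, the exception being Iigp1. These are single libraries, so no difference between the families is drawn from them. Gbp2 alone held 414 FPKM of the GBP sum in replicate 3, and Irgm2 stood at 24.2 and 23.5 FPKM in replicates 1 and 3.

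**Figure D4:**
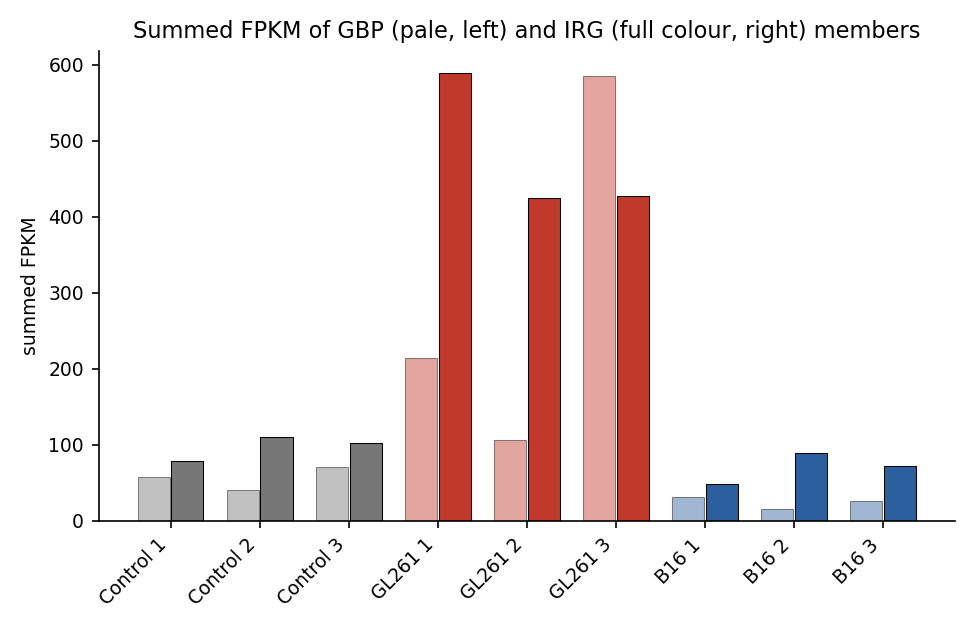
Summed FPKM (linear axis from 0) of the 5 GBP genes (pale bars) and the 5 IRG genes (full bars) in each of the 9 libraries, coloured by group. GL261 libraries hold 106 to 586 FPKM of GBPs and 424 to 589 FPKM of IRGs, above the other 6 libraries in each family.

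FPKM is scaled to length, so levels may be ordered between genes. In control MLECs the mean levels ran, from high to low, Igtp, Iigp1, Gbp2, Irgm1, Ifi47, Gbp3, Gbp7, Gbp6, Irgm2 and Gbp5, with every neighbouring pair overlapping over its 3 libraries. In GL261-associated MLECs the same order read Gbp2, Ifi47, Iigp1, Irgm1, Igtp, Gbp3, Gbp6, Irgm2, Gbp7 and Gbp5, and only Gbp7 and Gbp5 did not overlap. In B16-associated MLECs it was Iigp1, Gbp2, Irgm1, Igtp, Ifi47, Irgm2, Gbp7, Gbp3, Gbp6 and Gbp5, and only Iigp1 and Gbp2 did not overlap. Iigp1 was thus among the 3 highest members in every group and Gbp5 the lowest. Over the 9 libraries, which share depth and group, all 36 pairs of tested members had a positive Pearson r of log2(FPKM + 1), with a median of 0.52. The range was from 0.012 (Irgm1 and Irgm2) to 0.94 (Gbp3 and Gbp6), and r against the mean of the other members ran from 0.36 for Irgm2 to 0.85 for Iigp1.

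The other genes of both families were measured alongside. Of 20 listed by name, 17 were in the table and 12 passed the filter. In GL261 against control, 4 of these 12 rose by limma with Benjamini-Hochberg adjustment and 0 fell, where 2.58% of all genes tested rose. The median difference of the 12 was 2.13, against 0.23 over all genes tested. Gbp4 was listed at 0, 0 and 2.52 FPKM in control, at 48.1, 34.7 and 53.0 FPKM in GL261 and at 3.68, 0 and 0 FPKM in B16 libraries, and rose by 4.91 (SE 0.93, adjusted p = 0.0146, limma). Tgtp2, a gene of the IRG family, rose from 17.1 ± 5.36 to 154 ± 11.0 FPKM (SD, n = 3 each), a difference of 3.15 (SE 0.55, adjusted p = 0.0113, limma), and stood at 15.9 ± 10.7 FPKM in B16 libraries. Tgtp1 did not rise, at 1.19, 0.037 and 18.5 FPKM in control and 1.19, 0.289 and 0.630 FPKM in GL261 libraries. Sharing of reads between Tgtp1 and Tgtp2 was not examined here. Of the 12, 9 had a difference above 0. Gm12250, known as Irgb10, was listed at 12.2, 7.86 and 12.5 FPKM in GL261 libraries and at 0 in the other 6 (difference 3.54, limma adjusted p = 0.0112). F830016B08Rik, a further IRG-like gene, was listed at 6.61, 2.65 and 9.90 FPKM in GL261 libraries and at no more than 0.213 FPKM elsewhere (difference 2.75, limma adjusted p = 0.0378). Gm12250 and F830016B08Rik passed the filter through the GL261 libraries alone. Gbp4 had at least 1 FPKM in only 2 libraries outside GL261, so it too met the filter only with the GL261 libraries. The count of 4 went to 0 when GL261 replicate 1, 2 or 3 was left out, and to 0 with aligned reads as covariate. Leaving out a GL261 library takes Gm12250 and F830016B08Rik out of the tests, so that part of the drop was fixed by the filter. Against B16, 0 of the 12 passed by limma after adjustment and 6 were higher at an unadjusted p under 0.05, against 3.29% of all genes tested. With GL261 higher, 8 of 12 did not overlap, against 7.13% of all genes tested. The median was 1.86, against 0.01 over all genes tested. In B16 against control, 0 of 12 passed after adjustment or at an unadjusted p under 0.05 in limma.

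Within the interferon-gamma pathway, the receptor and signalling genes did not all follow the GTPases. Ifng itself was listed at 0 in all 9 libraries. The receptor chain Ifngr1 stood at 77.1 ± 24.6 FPKM in control, 85.5 ± 11.9 FPKM in GL261 and 59.1 ± 10.1 FPKM in B16 libraries (SD, n = 3 each), and its GL261 minus control difference was 0.18 with an interval from -0.70 to 1.07. Ifngr2 was higher in both tumor groups, at 53.1 ± 21.3 FPKM in GL261 and 70.6 ± 23.9 FPKM in B16 against 14.3 ± 13.4 FPKM in control libraries, with limma adjusted p of 0.186 and 0.152. Irf1, a transcription factor that binds interferon-stimulated response elements, stood at 82.8 ± 45.6 FPKM in GL261, 63.5 ± 40.3 FPKM in B16 and 17.2 ± 20.8 FPKM in control libraries (SD, n = 3 each). Its difference from control was 3.15 in GL261 (SE 1.04, adjusted p = 0.138, limma) and 2.72 in B16 (SE 1.04, adjusted p = 0.242). Its tumor groups overlapped, with a GL261 minus B16 difference of 0.42 and an interval from -1.85 to 2.70. Batf2, a transcription factor induced by interferon-gamma, was like the members highest in the GL261 libraries, at 19.4, 17.0 and 6.94 FPKM. It was listed at 0, 0 and 3.31 FPKM in B16 libraries and at 0, 0 and 2.91 FPKM in control libraries. Batf2 thus had at least 1 FPKM in only 2 libraries outside GL261. Its difference from control in GL261 was 3.18 (SE 0.93, adjusted p = 0.0974, limma). Of the 13 signalling genes tested, 1 rose in GL261 against control, where 2.58% of all genes tested rose. It was Socs1, the feedback inhibitor of the Jak kinases. Socs1 was listed at 0 in the 3 control libraries, and its difference was 5.07 (SE 1.11, adjusted p = 0.0306, limma). It had at least 1 FPKM in only 2 libraries outside GL261, so it met the filter only with the GL261 libraries. The median of the 13 was 1.73 against control and 0.25 against B16, where those of all genes tested were 0.23 and 0.01.

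Other interferon-gamma targets moved in the same direction where they passed. The median of the 23 tested was 2.31 in GL261 against control, against 0.23 over all genes tested. By limma 4 of the 23 rose and 0 fell, where 2.58% of all genes tested rose. They were the CXCR3 ligands Cxcl10 (7.22, adjusted p = 0.0214) and Cxcl9 (6.31, adjusted p = 0.0103) and the antigen presentation genes H2-K1 (1.55, adjusted p = 0.0428) and B2m (1.53, adjusted p = 0.00103). Cxcl9 and Cxcl10 had at least 1 FPKM in only 1 library outside GL261 each. B2m, the light chain of MHC class I, was the 1 gene of the whole table that differed between GL261 and B16 after adjustment, by 2.37 (SE 0.18, limma adjusted p = 2e-04). Without limma's trend its adjusted p was 0.188, and 6 other genes were called. It stood at 17143 ± 1465 FPKM in GL261, 3302 ± 207 FPKM in B16 and 6074 ± 1697 FPKM in control libraries (SD, n = 3 each). B2m was also the 1 target that fell in B16 against control (-0.84, limma adjusted p = 0.0329), where 50 of the 9955 genes tested fell. Against B16, 12 of the 23 targets did not overlap, with GL261 higher, against 7.13% of all genes tested. The median of the 23 was 2.09, against 0.01 over all genes tested.

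The median of the 26 type I interferon genes tested was 1.73 in GL261 against control, against 0.23 over all genes tested. By limma 5 of the 26 rose and 0 fell, where 2.58% of all genes tested rose. They were Irf7 (6.24, limma adjusted p = 0.0226), Ifit3 (5.48, 0.03), Rsad2 (4.15, 0.0256), Oasl2 (3.96, 0.0424) and Rtp4 (2.88, 0.026). Rsad2 passed the filter through the GL261 libraries alone. Against B16, 17 of the 26 did not overlap, with GL261 higher, against 7.13% of all genes tested. By limma 0 passed after adjustment while 13 were higher at an unadjusted p under 0.05, against 3.29% of all genes tested. Of 13 genes for autophagy and vacuole partners of the GTPases, 0 rose and 1 fell in GL261 against control, where 90 of the 9955 genes tested fell. The gene was Map1lc3b, which encodes the autophagosome protein LC3B, and it differed by -1.65 (SE 0.28, limma adjusted p = 0.0103). The core of the interferon-stimulated response element was found in promoters of 5 of 7 other GTPases and in 52.2% of type I interferon promoters, but in 7.14% of signalling and 10.5% of target promoters and in 0 of 13 autophagy promoters.

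**Figure D5:**
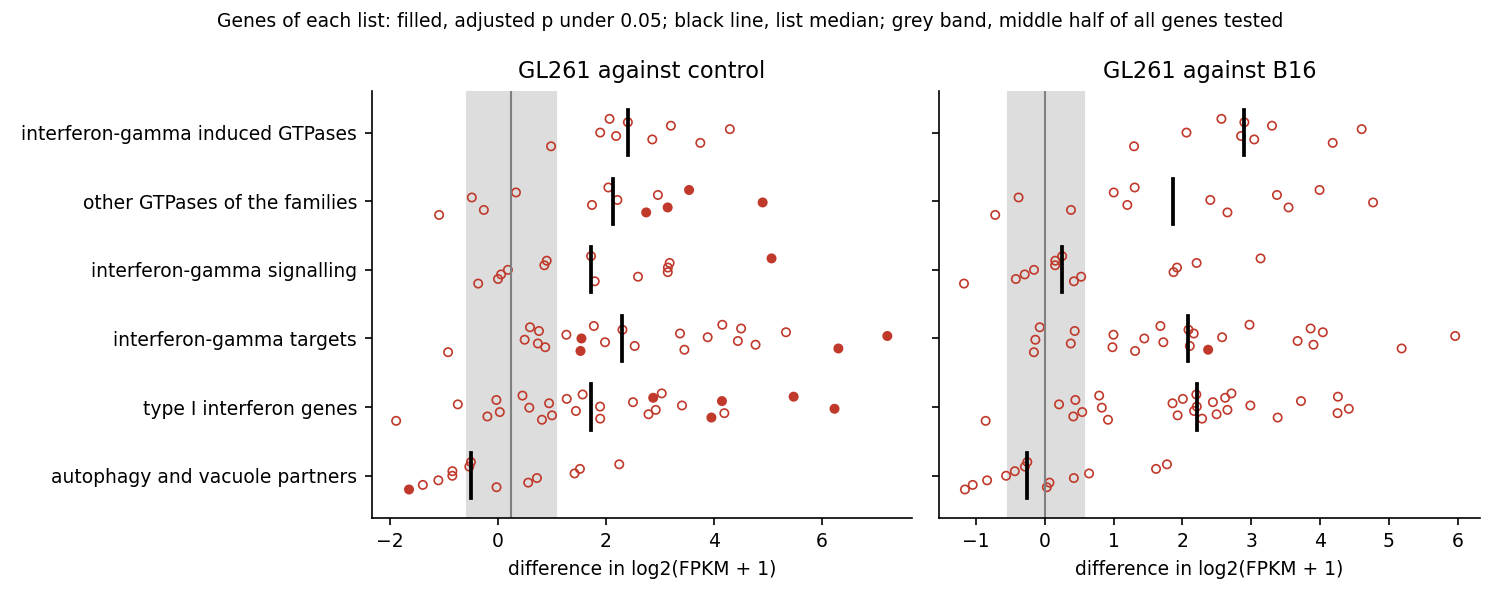
Differences in log2(FPKM + 1) of each tested gene (points, filled where the limma adjusted p was under 0.05) in the members and the 5 other lists, for GL261 minus control on the left and GL261 minus B16 on the right; black lines are list medians, the grey line and band the median and interquartile range of all genes tested. The members' medians are 2.41 and 2.90, and those of the autophagy list -0.50 and -0.25.

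The genes most like the members over the 9 libraries were named by Pearson r with the members' mean standardised log2(FPKM + 1), among 9946 genes. They were Bag2 (0.980), Gm12250 (0.979), Cdc6 (0.978), Cyp7b1 (0.975), Apol10b (0.972), F830016B08Rik (0.971), Slc26a6 (0.965), Ifitm1 (0.964), Ube2t (0.960) and A930015D03Rik (0.956). Gm12250 and F830016B08Rik belong to the IRG family, and Ifitm1 is an interferon-induced transmembrane protein. Ifitm1 was listed at 221, 18.3 and 736 FPKM in GL261 libraries and at 0 in the other 6. The other genes named were likewise listed at or near 0 in every control and B16 library. Every gene named thus passed the filter through the GL261 libraries alone, and its high r restates the step to that group. The tested members differ here, with at least 1 FPKM in 4 to 6 libraries outside GL261.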

How the data were processed

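MLECs were sorted, by CD31, CD45 and LYVE-1 per the labels and with PDPN per the results text of the study. From each library's 10 cells cDNA was amplified and sequenced as paired ends. The protocol was recorded as Smart-seq2, whereas the methods of the study do not name it and describe a tail added to the first-strand cDNA. The authors deposited one table of FPKM per gene and library, made with TopHat2 2.0.12 and Cufflinks 2.2.1 on mm9 per the labels; the annotation is not given in the sources used here. FPKM holds no counts, so no count model was used and the precision is set by 3 libraries per group, each pooled from 6 mice.

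Groups followed the sample labels. Genes reaching 1 FPKM in 3 or more libraries were kept (9955 of 24321), and their log2(FPKM + 1) was fitted with limma 3.58.1 (R 4.3.3, trend), without covariates, and p-values were adjusted by Benjamini-Hochberg over all 9955 genes at 0.05. GL261, B16 and control formed 1 fit of 3 groups; joined tumors against control formed another. Single members were also tested by exact permutation (Python 3.11.15, numpy 2.4.6). The 95% intervals used the t distribution of scipy 1.17.1. Alternatives changed the pseudocount, scaling, filter, trend, block, depth term, grouping and libraries. Loci came from GENCODE on mm9 and promoters from RefSeq (GRCm38.p6). The members and lists were chosen with earlier results of these data known. Genes named from the signalling and other-GTPase lists passed the filter (Ifng was named for its zeros after its values were seen); from the remaining lists, up to 5 genes past the threshold in each direction were named, and likeness named the 10 highest correlations. Protein sequences were not analysed here. One gene of the signalling list is not reported here by itself.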

Additional observations from a re-analysis of the deposited data

Results flagged for a closer look

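Gbp5 was listed at 8.35 FPKM in GL261 replicate 1 and at 0 in the other 5 tumor-associated libraries, so the gap of the highest library to its nearest neighbour was 1.0 of the whole range. This value follows from the zeros, so the chance rate of about 1 in 20 such groups does not apply to it. Gbp5 was the 1 member with such a gap among 10.

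For Gbp6, Gbp7 and Igtp every GL261 library lay above and every B16 library below the control mean of log2(FPKM + 1), a pattern found in 1.04% of the genes tested. On the FPKM scale Gbp2 and Gbp3 show it too. The GL261 minus B16 differences on the log2(FPKM + 1) scale were 3.30 for Gbp6, 2.57 for Gbp7 and 2.85 for Igtp, with adjusted p of 0.748, 0.672 and 0.388 in limma's contrast of the tumor groups. Gbp6 and Gbp7 overlapped between control and each tumor group, Igtp between control and B16, and Gbp6 reads are shared with Gbp10.

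B2m differed by 2.37 between GL261 and B16, with an adjusted p of 2e-04 in limma, or 0.188 without the trend.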

How the results depend on the processing

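No member passed limma's adjusted threshold in GL261 against B16, B16 against control or joined tumors against control under any alternative run. In GL261 against control the count was 1 with a mean FPKM of at least 10 (Iigp1) and ran from 0 to 1 when 1 library was left out. The GL261 minus B16 median of 2.90 ran from 2.77 to 3.09 and, with 1 library left out, from 2.60 to 3.09, and 9 members did not overlap after rescaling to a common sum or quantile normalization, both chosen after seeing the data. The GL261 minus control median of 2.41 was 3.31 with a pseudocount of 0.1 and ran from 2.06 to 3.06 with 1 library left out. It was 2.86 with aligned reads as covariate, under which Igtp was -0.28, Ifi47 -0.74 and Gbp2 7.57. Aligned reads differ between the groups, so that fit cannot separate depth from group. The joined-tumor median of 1.25 was -1.18 with that covariate and ran from 0.71 to 1.76. The B16 minus control median of -0.31 was -0.79 with a pseudocount of 0.1, -0.76 after quantile normalization and 0.03 with that covariate, and ran from -1.15 to 0.40. The cause was not tested. B2m in GL261 minus B16 had an adjusted p of 0.188 without trend. Of 324 results for single members in both GL261 comparisons, 318 kept direction and side of the threshold.

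The replicate numbers did not pair the libraries, since same-numbered deviations correlated from -0.033 to 0.044. With the replicate number as a block, 0 members passed in any comparison the medians stayed at 2.41, 2.90, 1.25 and -0.31, and the calls over all genes in GL261 against control went from 347 to 230.

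Over all genes, limma called 391 in joined tumors, 347 in GL261 and 210 in B16 against control, and 1 in GL261 against B16. These counts were 9, 2 and 5 against control with aligned reads as covariate, 254, 218 and 135 without a filter, and 197 and 38 for GL261 and B16 when those libraries were fitted with control alone. GL261 against B16 gave 2 after quantile normalization and 6 without trend. With 1 library left out the ranges were 245 to 444, 105 to 363, 69 to 274 and 1 to 4. The other GTPases called in GL261 against control, 4 of 12, were 2 with a mean FPKM of at least 10 and 2 when only GL261 and control were fitted. They were 0 with aligned reads as covariate or when any single GL261 library was left out. The mean filter and the loss of a GL261 library each take Gm12250 and F830016B08Rik out of the tests. Rescaling to a common sum moved the all-gene median in GL261 minus control from 0.23 to 0.02. FPKM and 10 cells a library leave low members such as Gbp5 undecided.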
